A study of Mus musculus with 2 samples.

Results

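The let-7 family with Mir98 was followed in microRNA-seq libraries of whole bladder from newborn mice of strain B6NCrl at postnatal day 0. Both libraries belong to 1 group. Each was made from a single whole bladder (2 pups of 1 pregnancy, named pup 2 and pup 1 as in the labels), and sex was not collected. Small RNA of a size range under 30 nucleotides was sequenced from total RNA, per the labels. The family is represented by 10 of the 1973 miRNA genes in the tables, chosen by name. Of these, 9 were read on their own strand: Mirlet7a-1, Mirlet7b, Mirlet7c-1, Mirlet7c-2, Mirlet7d, Mirlet7f-2, Mirlet7g, Mirlet7i and Mir98. The tenth, Mirlet7e, is not listed under its own ID and was read from the strand opposite Gm25927, a miRNA gene that spans it in the GENCODE M21 annotation. There was no treatment or control, so the data describe the make-up of the family in this tissue and how far it varied between the littermates.

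The let-7 miRNAs are among the most conserved of animals and were found in the worm as regulators of developmental timing. A mature let-7 is cut from a hairpin precursor and guides repression of messenger RNAs through its seed, the bases 2 to 8 from its 5′ end. In mammals the family rises as cells differentiate, and the RNA-binding proteins Lin28a and Lin28b hold back its maturation in undifferentiated cells. Known targets include Hmga2, Ras genes and Lin28a and Lin28b themselves; none of these messenger RNAs was measured here.

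The mature sequences are shown because they set which members can be told apart by sequencing. They are the 5p arms in RefSeq (GRCm38.p6), 5′ to 3′, with the seed in capitals.
mmu-let-7a-5p: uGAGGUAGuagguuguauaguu
mmu-let-7b-5p: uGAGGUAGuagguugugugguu
mmu-let-7c-5p: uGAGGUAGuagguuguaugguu
mmu-let-7d-5p: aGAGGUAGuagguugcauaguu
mmu-let-7e-5p: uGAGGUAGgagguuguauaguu
mmu-let-7f-5p: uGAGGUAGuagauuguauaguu
mmu-let-7g-5p: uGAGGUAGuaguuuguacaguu
mmu-let-7i-5p: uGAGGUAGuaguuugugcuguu
mmu-miR-98-5p: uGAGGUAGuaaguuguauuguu

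All 9 arms are 22 bases long and carry the same seed, so counts were compared between members without dividing by length. They differ outside the seed only. Counted from 1 at the 5′ end, with the base of let-7a first, let-7c differs by A19G, let-7e by U9G and let-7f by G12A. The substitutions are A17G and A19G in let-7b, U1A and U16C in let-7d, G12U and U18C in let-7g, and G11A and A19U in miR-98. The most distant from let-7a is let-7i, with G12U, A17G, U18C and A19U. The arms of let-7a, let-7b, let-7c, let-7e and let-7f each lie 1 base from another arm of the family, while let-7d, let-7g, let-7i and miR-98 differ by at least 2 bases from every other.

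**Figure D1:**
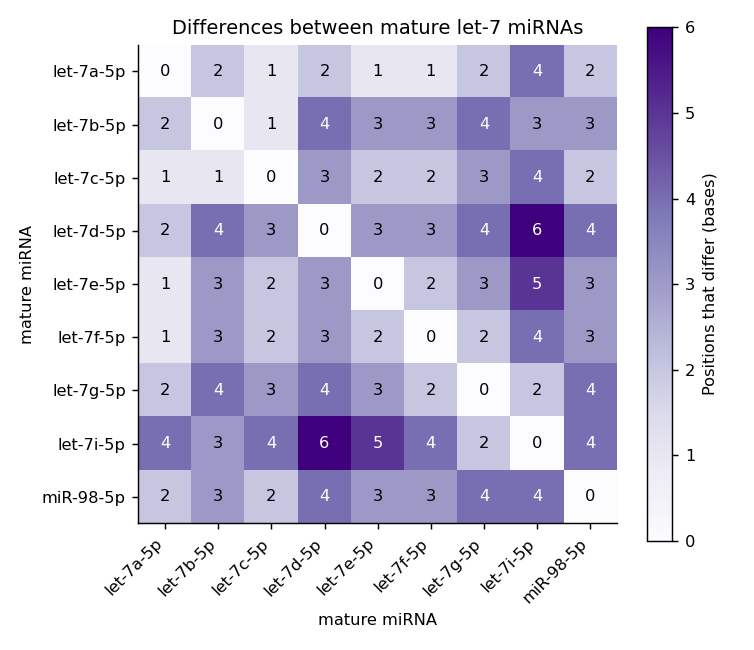
Number of positions, in bases, at which the 9 mature 5p arms of the family differ from each other; both axes list the mature miRNAs. Pairs with let-7a, let-7c, let-7e or let-7f hold many of the low values, and let-7d and let-7i differ most, at 6 positions.

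Of 1738 entries for mature arms in the RefSeq table, 13 carry this seed. Of these, 11 are entries of family hairpins. The other two are the shorter arms of Mir7k (let-7k) and Mir1961, shown because they share the seed but gave no signal.
mmu-let-7k: uGAGGUAGgagguugugug
mmu-miR-1961: uGAGGUAGuaguuagaa
Both genes had 0 counts in both libraries, which leaves room for 3 counts. That limit is 0.825 CPM for pup 2 and 0.402 CPM for pup 1. CPM stands for counts per 1000000 sense-strand counts at genes. Mir7j (let-7j) is named as a let-7 but carries another base in the last position of the seed.
mmu-let-7j: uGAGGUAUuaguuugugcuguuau
It had 53 counts (14.6 CPM) in pup 2 and 165 counts (22.1 CPM) in pup 1, far below most of the family.

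The library of pup 2 held 3636650 sense-strand gene counts among 5609988 reads, and that of pup 1 held 7460621 among 11323636. The miRNA markers of a bladder were present. The smooth muscle miRNAs Mir143 and Mir145a made up 53.5% of counts in pup 2 and 53.8% in pup 1, and 6 of 6 epithelial markers, led by the miR-200 family, summed to 1.32% and 1.34%. Of 6 neuronal markers with a row, 5 were at 0 in both libraries, all of them numbered copies of Mir124a or Mir9. How many reads of such copies mapped to several places is unknown, so these counts of 0 do not show that neuronal miRNAs were absent. The other neuronal marker, Mir137, was detected: pup 2 held 136 counts of it (37.4 CPM) and pup 1 held 316 (42.4 CPM). The 1 blood vessel marker, Mir126a, reached 19645.6 CPM in pup 2 against 19914.7 CPM in pup 1. Blood cell markers, 5 of 5 detected, came to 2299.9 CPM in pup 2, against 1148.0 CPM in pup 1. The liver marker Mir122 was at 31.6 CPM in pup 2 against 111.8 CPM in pup 1. Striated muscle markers, 2 of 5 detected, came to 60.2 CPM in pup 2 against 85.4 CPM in pup 1. Those not detected were all numbered copies of Mir1a or Mir133a, so they have the same limit as Mir124a and Mir9. Reads that mapped to several places were listed apart from the genes and made up 24.8% of reads in pup 2 and 22.7% in pup 1. Intervals and the limits for counts of 0 cover counting error only.

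The first question is how much of the bladder profile the family makes up. Its 10 members held 248391 counts in pup 2 and 537472 in pup 1. Set against all sense-strand gene counts, this was 6.83% in pup 2 and 7.20% in pup 1. The counts at Mirlet7e come from the opposite strand and are not in that total. The 9 members read on their own strand made up 6.63% of it in pup 2, with an exact binomial 95% interval of 6.60% to 6.65%, and 6.99% in pup 1, with an interval of 6.97% to 7.01%. The mean over the pups for all 10 members was 7.02% ± 0.264 (SD, n = 2), or 14.8% ± 0.629 when Mir143, the most abundant gene of the tissue, was left out of the totals. All 10 members passed the filter of 10 counts summed over the libraries, as did 363 of the 1973 genes. At 1 CPM and 3 counts in both libraries 10 of 10 members were detected, against 336 of all 1973 genes with Mirlet7e read as described. At 100 CPM it was 9 of 10 members, and 154 of all genes.

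The second question is which members carry the family. Mirlet7g was the highest, with 30261.4 CPM in pup 2 and 29395.5 CPM in pup 1, and ranked 4 of all genes by mean. Mirlet7i followed with 20939.9 CPM in pup 2 and 24059.9 CPM in pup 1, at rank 6. Mirlet7d had 7851.2 CPM in pup 2 and 9066.9 CPM in pup 1, at rank 15. These 3 held 86.5% of family counts in pup 2 and 86.8% in pup 1. Mirlet7g lies in an intron of Wdr82 on chromosome 9 (106178840 to 106178927 on GRCm38, plus strand), and Mirlet7i in an exon of the pseudogene transcript D630033A02Rik on chromosome 10 (122985640 to 122985724, minus strand). Both stand outside the let-7 clusters described below, and their 5p arms differ from each other at 2 positions.

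A middle tier had means between 2987.9 and 1657.8 CPM. Mir98 had 2893.9 CPM in pup 2 and 3081.9 CPM in pup 1, and Mirlet7b 2244.4 CPM in pup 2 and 2360.0 CPM in pup 1. Mirlet7e, read opposite Gm25927, had 2054.1 CPM in pup 2 and 2124.2 CPM in pup 1, from 7470 and 15848 counts with none on the other strand. This would be missed in a sense-strand table, where Gm25927 is at 0. Mirlet7f-2 had 1718.9 CPM in pup 2 and 1596.6 CPM in pup 1.

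A gap of 12.9 ± 1.05-fold (SD, n = 2) separated Mirlet7f-2 from the next member, Mirlet7c-2, and set off a lowest tier. Mirlet7c-2 had 125.7 CPM in pup 2 and 131.0 CPM in pup 1, Mirlet7a-1 115.2 and 110.6 CPM, and Mirlet7c-1 97.6 and 114.5 CPM in the same order of pups. Neighbours in the order of the 10 levels did not overlap between the pups except Mirlet7a-1 and Mirlet7c-1, which changed places, with a ratio of 1.18 in pup 2 and 0.966 in pup 1. Mirlet7c-2 and Mirlet7a-1 were also close, and in pup 2 their exact 95% intervals overlapped, at 114.4 to 137.7 CPM and 104.4 to 126.8 CPM. With 2 pups the order has no test, and the spread is that of 1 litter.

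**Figure D2:**
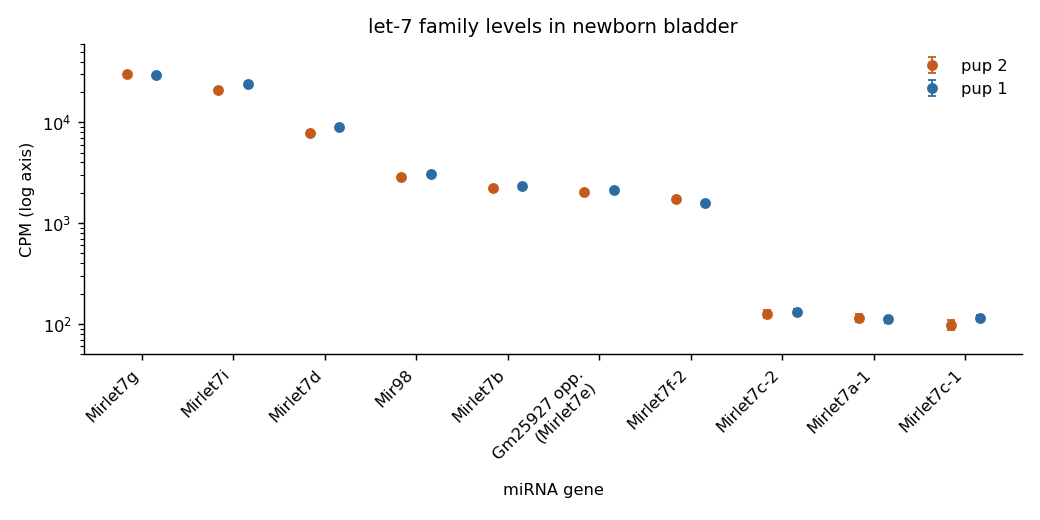
Level of each member in CPM on a log axis, with pup 2 in orange and pup 1 in blue; bars are exact 95% counting intervals, mostly smaller than the points. The members form 3 tiers, with Mirlet7g, Mirlet7i and Mirlet7d above 7851 CPM, 4 members between 1597 and 3082 CPM, and Mirlet7c-2, Mirlet7a-1 and Mirlet7c-1 between 97.6 and 131.0 CPM.

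Within the family, the share of Mirlet7g was 44.3% in pup 2 and 40.8% in pup 1, and that of Mirlet7i 30.7% in pup 2 and 33.4% in pup 1. Together they held 75.0% in pup 2 and 74.2% in pup 1. Mirlet7d took 11.5% in pup 2 and 12.6% in pup 1, and Mir98 4.24% and 4.28%. The count of Mirlet7g over that of Mirlet7i was 1.45 in pup 2 and 1.22 in pup 1, so Mirlet7g led in both libraries but by a different margin. The count of Mirlet7i over that of Mirlet7d was 2.67 in pup 2 and 2.65 in pup 1.

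**Figure D3:**
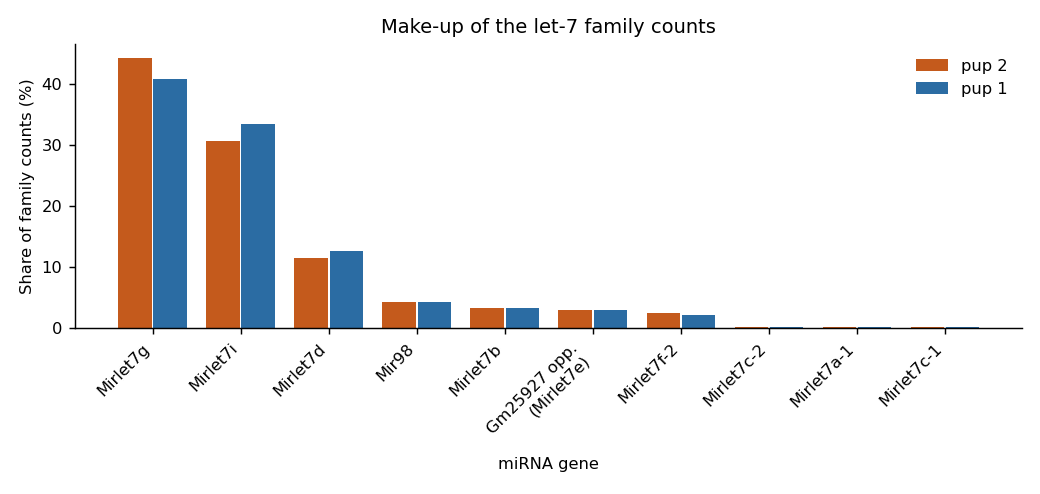
Share of each member in the family counts, in percent, with pup 2 in orange and pup 1 in blue; bars start at 0. Mirlet7g is larger in pup 2 (44.3% against 40.8% in pup 1), and Mirlet7i and Mirlet7d are smaller in pup 2.

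The third question is how the levels relate to the number of genomic copies of a mature arm. The 5p arms of Mirlet7b, Mirlet7d, Mirlet7e, Mirlet7g, Mirlet7i and Mir98 are each found in 1 hairpin of the RefSeq table, and those of let-7a, let-7c and let-7f in 2. The 6 members whose arm is in 1 hairpin held 97.0% of family counts in pup 2 and 97.3% in pup 1, with means of 2089.2 to 29828.5 CPM. The 4 whose arm is in 2 hairpins, Mirlet7a-1, Mirlet7c-1, Mirlet7c-2 and Mirlet7f-2, held 3.01% in pup 2 and 2.71% in pup 1, with means of 106.0 to 1657.8 CPM. Reads of an arm in 2 hairpins match both places equally, and the tables do not say how many of the reads mapped to several places carry a let-7 arm. The levels of these 4 members, the family sum and the order of the members can therefore be measured too low or misplaced by an unknown amount, and the part of this in the difference between both groups was not tested.

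The copies become distinct just past the arm. The sequences below show the 5p arm in lower case and the next 4 bases of the RefSeq hairpin in capitals.
Mirlet7a-1: ugagguaguagguuguauaguuUUAG
Mirlet7a-2: ugagguaguagguuguauaguuUAGA
Mirlet7c-1: ugagguaguagguuguaugguuUAGA
Mirlet7c-2: ugagguaguagguuguaugguuUUGG
Mirlet7f-1: ugagguaguagauuguauaguuGUGG
Mirlet7f-2: ugagguaguagauuguauaguuUUAG
Identity around the arm runs over 23 bases in both the let-7a and the let-7c pair and over 22 in the let-7f pair. The 3p arms differ between the copies of each pair, by 6, 5 and 4 bases for let-7a, let-7c and let-7f over the length they share. However, the 3p arms of Mirlet7a-1 and Mirlet7c-2 are the same, shown here because it leaves neither hairpin with an arm sequence of its own.
mmu-let-7a-1-3p: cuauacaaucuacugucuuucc
The gene counts do not separate the arms of a hairpin.

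Among the copies, Mirlet7a-2, which is not one of the 10 members, had 76.2 CPM in pup 2 and 91.0 CPM in pup 1, close to Mirlet7a-1. The count of Mirlet7a-1 over that of Mirlet7a-2 was 1.51 in pup 2 and 1.22 in pup 1, and that of Mirlet7c-2 over Mirlet7c-1 was 1.29 and 1.14 in the same order. Mirlet7f-1 is not listed under its own ID, and the opposite strand of Gm24111, which spans it in GENCODE M21, had 304 counts (83.6 CPM) in pup 2 and 615 counts (82.4 CPM) in pup 1. Mirlet7f-2 was 20.6 times that in pup 2 and 19.4 times in pup 1. So 5 of these 6 hairpins stood between 76.2 and 131.0 CPM in both pups, and Mirlet7f-2 was the one far above.

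The fourth question is how members of the same genomic cluster compare. Several let-7 hairpins lie beside each other or beside hairpins of the miR-99 and miR-100 family and of the miR-125 family, the vertebrate relatives of worm lin-4. On chromosome X, Mirlet7f-2 (151912346 to 151912428) and Mir98 (151913214 to 151913321) lie 785 bases apart. Both are intronic in Huwe1, a ubiquitin ligase gene. The count of Mirlet7f-2 over that of Mir98 was 0.594 in pup 2 and 0.518 in pup 1. On chromosome 15, Mirlet7c-2 (85706603 to 85706697) and Mirlet7b (85707319 to 85707403) overlap exons of the non-coding gene Lncppara. There, Mirlet7b was 17.9 times Mirlet7c-2 in pup 2 and 18.0 times in pup 1.

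On chromosome 13, Mirlet7a-1 (48538179 to 48538272), Mirlet7f-1 and Mirlet7d (48536012 to 48536114) overlap exons of the non-coding gene 6720427I07Rik on the minus strand. Mirlet7d, whose arm is in 1 hairpin, was 68.1 times Mirlet7a-1 in pup 2 and 82.0 times in pup 1. It was 93.9 times the count at Mirlet7f-1, read opposite Gm24111, in pup 2 and 110.0 times in pup 1. These gaps were wider than those within the other two clusters made of family hairpins alone.

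The other 3 clusters hold a miR-99 or miR-100 hairpin, a let-7 hairpin and a miR-125 hairpin in that order. On chromosome 17, Mir99b had 6426.2 CPM in pup 2 and 6882.7 CPM in pup 1, Mirlet7e, 94 bases on at 17830352 to 17830444, the levels given above, and Mir125a 1651.5 and 1776.9 CPM in the same order of pups. The count at Mirlet7e over that of Mir99b was 0.320 in pup 2 and 0.309 in pup 1, so the levels of this cluster stayed within 4-fold. On chromosome 16, Mir99a had 44327.3 CPM in pup 2 and 37087.7 CPM in pup 1. It was 454.1 times Mirlet7c-1 (77599657 to 77599750), 656 bases away, in pup 2 and 324.0 times in pup 1. Both hairpins are intronic in Mir99ahg. Mir125b-2 of that cluster had 466.9 CPM in pup 2 and 414.4 CPM in pup 1. On chromosome 9, Mir100 had 2668.1 CPM in pup 2 and 2401.8 CPM in pup 1, and was 35.0 times Mirlet7a-2 in pup 2 and 26.4 times in pup 1. Mir125b-1 had 243.9 CPM in pup 2 and 221.3 CPM in pup 1. Where the let-7 arm is in 1 hairpin, as for let-7e, the let-7 level lay between those of its neighbours. Where it is in 2, as for let-7c and let-7a, the let-7 level was the lowest of the cluster. This sets 1 cluster against 2. How many reads of Mir125b-1 and Mir125b-2, also numbered copies, mapped to several places is unknown. The part of such reads in this pattern was not tested.

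**Figure D4:**
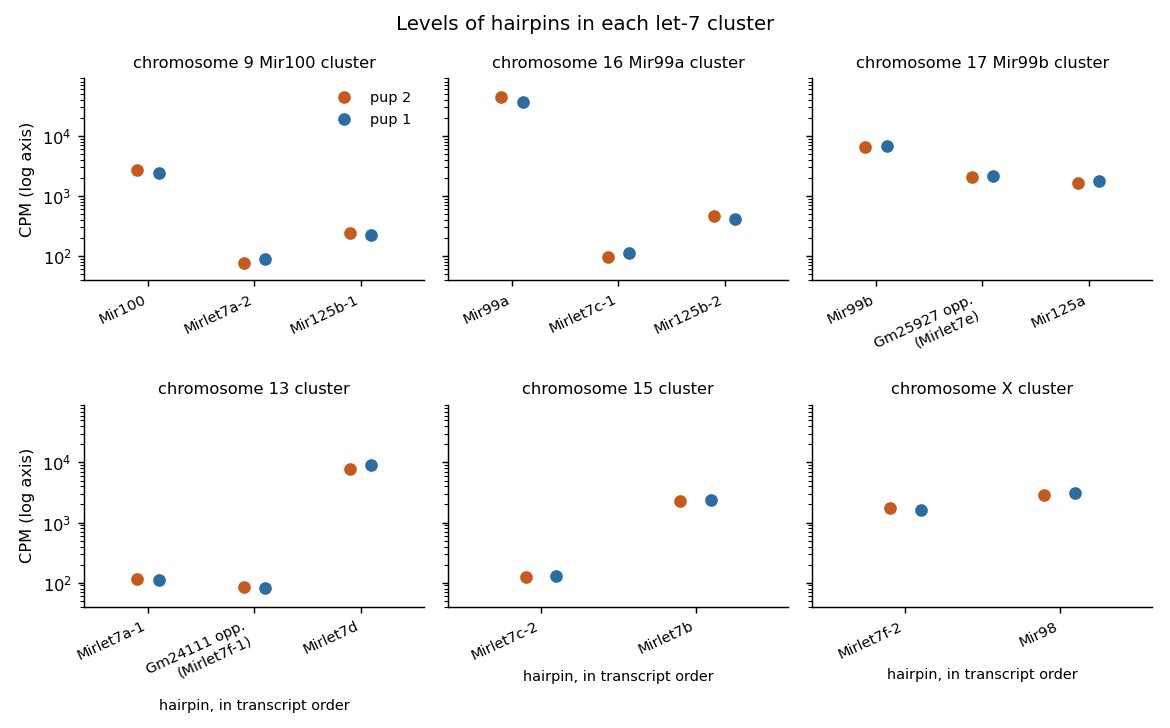
Levels in CPM (log axis) of the hairpins of each of 6 genomic clusters, placed in transcript order, with pup 2 in orange and pup 1 in blue. The hairpins Mirlet7a-1 and Mirlet7c-2, Mirlet7c-1 and Mirlet7a-2, and Mirlet7f-1 (opposite Gm24111) are the lowest of their clusters or tied near the bottom, at 76.2 to 131.0 CPM, while Mirlet7e sits between Mir99b and Mir125a.

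The fifth question is how far the littermates differed. Levels of the members varied by 2.05% (Mirlet7g) to 11.2% (Mirlet7c-1) of their mean (SD, n = 2). The family sum had a log2 ratio of pup 2 over pup 1 of -0.053 (counting SE 0.0035) after scaling of the libraries by TMM. Without Mirlet7i, the ratio of the summed counts was 0.005. The members' ratios ran from -0.20 to 0.13 with a median of -0.04, and the median over all 363 tested genes was 0.03. In size, the median log2 ratio was 0.08 for the members and 0.16 for all tested genes, or 0.11 for the 181 genes that reached 200 counts in both libraries. In bulk tissue, fewer cells of a type and less RNA per cell cannot be told apart.

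Mirlet7i and Mirlet7d were lower in pup 2 by read counting alone. Mirlet7i had a log2 ratio of -0.18 (counting SE 0.00624, adjusted p = 5.9e-177, two-sided exact binomial test with Benjamini-Hochberg adjustment), and Mirlet7d one of -0.18 (counting SE 0.0102, adjusted p = 1.8e-72 in the same exact test). Mirlet7g was higher in pup 2, with a log2 ratio of 0.07 (counting SE 0.00533), and so was Mirlet7f-2 at 0.13 (counting SE 0.0225). Mir98 at -0.07 and Mirlet7b at -0.05 were lower in pup 2. The ratios of Mirlet7c-1 (-0.20, adjusted p = 0.071), Mirlet7a-1 (0.08, adjusted p = 0.54), Mirlet7c-2 (-0.03, adjusted p = 0.85) and Mirlet7e read opposite Gm25927 (-0.02, adjusted p = 0.40) did not pass the exact test at 0.05.

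In all, 6 of 10 members passed, beside 32.2% of the 363 tested genes and 54.7% of the 181 that reached 200 counts in both, as all members did. Of the 7 members that reached 5000 counts in both libraries, a depth chosen after seeing the data, 6 passed, and so did 80.4% of the 56 genes at that depth. None of the 3 members with fewer counts passed. Of the 6, 2 were higher in pup 2, beside 19.0% of tested genes, and 4 lower, beside 13.2%. At that depth passing is common, and the members' count is not a result about the family. The split over all tested genes was 69 higher and 48 lower in pup 2 with TMM, 59 and 65 with total count scaling and 57 and 70 with DESeq2 size factors. With either of these scalings Mirlet7c-1 and Mirlet7e also passed, as lower in pup 2. Mirlet7g did not pass with no filter on low counts, at a log2 ratio of 0.003 and an adjusted p of 0.93 in the exact test.

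The binomial test sets these libraries against read counting noise and compares no conditions. In edgeR, the common dispersion of these libraries, estimated with both pups as 1 group, amounts to a biological coefficient of variation near 13.2%. The difference between the pups is itself part of this dispersion, so a test that uses it cannot decide whether members differ. When edgeR's exact test used it, 0 of 10 members passed, beside 1.38% of tested genes (5 of 363). At an unadjusted p under 0.05 there were 0 members and 17 of the 363 tested genes. None of the 10 members differed by 25% or more (the higher library over the lower), against 102 of the 363 tested genes. Those 363 include genes with few counts, whose ratios spread more widely, so these numbers are not matched for depth. With 1 library on each side edgeR's exact test leaves no residual degree of freedom and says nothing of differences between animals. The summed blood cell markers and the liver marker, given above, differed between the pups by more than any member, in opposite directions. Within the blood cell list, Mir223 was higher in pup 2 and held most of the summed difference. Mir144 (log2 ratio 0.73) and Mir451a (0.37) were also higher in pup 2. Mir150 at 0.16 and Mir155 at -0.10 differed by less than Mirlet7c-1. The part of these markers in the members' ratios was not tested.

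**Figure D5:**
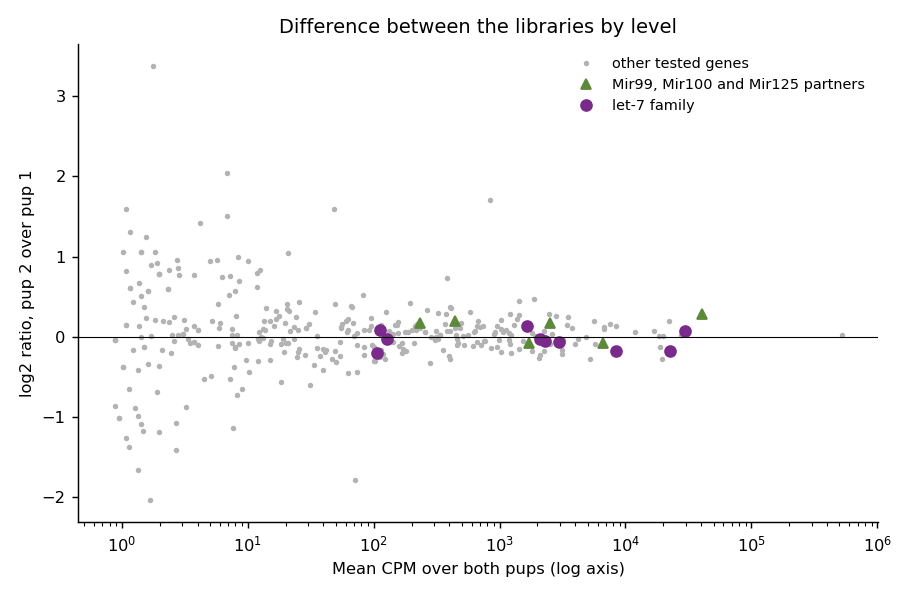
Log2 ratio of pup 2 over pup 1 against mean CPM (log axis) for the 363 tested genes, with the 10 family members as purple circles, 6 cluster partners as green triangles and other genes in grey. The members lie between -0.20 and 0.13, near the line of no difference, while ratios of genes with few counts spread from -2.04 to 3.38.

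Of the 6 cluster partners, 4 passed the exact binomial test as higher in pup 2, beside 19.0% of tested genes. The other 2 passed as lower, beside 13.2%. All 6 reached 200 counts in both libraries, as did 181 genes, of which 54.7% passed. Passing is common at that depth, and this count is not a result about the partners. Their median log2 ratio was 0.17, beside 0.03 for all tested genes. With the common dispersion in edgeR's exact test, 0 of the 6 passed, with unadjusted p from 0.297 to 0.781. That test has the limit given above for the members. Mir99a had a log2 ratio of 0.28, whereas Mirlet7c-1 of the same cluster had -0.20. Mir100 had 0.18, and Mirlet7a-2 of the same cluster had -0.23 (adjusted p = 0.071, exact binomial test). In the chromosome 17 cluster, the ratios of Mir99b (-0.08), Mirlet7e (-0.02) and Mir125a (-0.08) lay close together. No difference between ratios of a let-7 hairpin and its partner was tested.

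Likeness was taken as distance over log2(CPM + 1) in the 2 libraries, with family members left out. The genes nearest to Mirlet7g were Mir21a (distance 0.093), Mir322 (0.169) and Mir26b (0.626). Those nearest to Mirlet7i were Mir26b (0.263), Mir126a (0.288) and Mir22 (0.321). Mir21a had 31783.4 CPM in pup 2 and 30637.3 CPM in pup 1, both a little above Mirlet7g. With 2 libraries this likeness is mainly one of level.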

How the data were processed

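The authors deposited 1 table per library of whole-number counts per miRNA gene, not normalized. The accompanying README names the mm10 assembly and the GENCODE M4 annotation. Which aligner and counter were used is not given in these sources. Columns carry no header. Since the first equals the other two added up at every gene, it was taken for both strands, the next for the sense strand and the last for the opposite one. The first 4 lines, reads not assigned to genes, stayed out of totals and tests.

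Symbols and positions came from GENCODE M21 on GRCm38 by Ensembl gene number, which matched 1894 of 1973 IDs. Sequences came from the RefSeq tables (GRCm38.p6), which held all the family hairpins. Levels are sense-strand counts per 1000000 sense-strand gene counts (CPM); Gm25927 was read on the opposite strand. A gene was detected at 1 CPM with 3 counts in each library. The pups were compared gene by gene with an exact conditional binomial test, two-sided, where the summed counts reached 10, TMM-scaled in edgeR 4.0.16 (R 4.3.3) and adjusted by Benjamini-Hochberg over 363 genes at 0.05. Log2 ratios use a prior count of 0.5. The test was tested on simulated data. Alternatives used DESeq2 1.42.0 size factors, total counts, other filters, both strands and edgeR's exact test with the common dispersion. That dispersion was estimated with both pups as 1 group. Python 3.11.15 with scipy 1.17.1 and pandas 2.3.3 did the rest.

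The members and lists were chosen with earlier results of these data known. Named genes are the members, other let-7 rows, 6 cluster partners, tissue markers and genes sharing the seed. For each of the 2 highest members, the 3 nearest genes outside the family were also named. Gm24111 and Mir7j were named after their values were seen.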

Additional observations from a re-analysis of the deposited data

Results flagged for a closer look

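The strand opposite Gm24111, which spans Mirlet7f-1 in GENCODE M21, held 304 counts in pup 2 and 615 counts in pup 1. It drew attention as a signal above the limit of a count of 0 at a locus that is in neither the family sum nor the test between the libraries.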

How the results depend on the processing

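The family share of 7.02% was 4.59% when set against all reads and 14.8% with Mir143 left out of the totals. It was 6.83% and 7.20% with 1 pup left out, and 6.79% in counts of both strands. It was 6.82% with members whose arm is in 1 hairpin, 7.03% with every Mirlet7 row, and 7.03% with Mirlet7a-2 and the opposite strand of Gm24111 added, a choice made after seeing the data. The 6 members that differed between the libraries by the exact binomial test became 0 with a minimum difference of 25% and 0 with the common dispersion in edgeR's exact test, and 6 to 8 under the other settings run. The common dispersion takes in the difference between the pups, so the outcome with it decides nothing about the members. The family log2 ratio of -0.053 was -0.077 with total count scaling, -0.087 with DESeq2 size factors, -0.062 in counts of both strands and -0.141 without Mirlet7g. It was 0.005 without Mirlet7i, the opposite sign. Detection stayed at 9 or 10 members. Over the log2 ratios of members and partners, total count scaling and DESeq2 size factors each left 13 calls as they were, added 2 (Mirlet7c-1 and Gm25927) and ended 1 (Mir125b-1), and no sign changed. No paired analysis was possible because there is 1 group of 2 pups, and leaving out a pup leaves no comparison between libraries. How far reads mapped to several places limit the levels of members with a second copy of their arm was not tested.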
